A study of Mus musculus with 12 samples.

Results

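Bone marrow (BM) Treg cells labelled ST2-KO, taken from mice that carried leukemia, were compared with wild-type (WT) Treg cells from mice without leukemia. The comparison was defined by the sample labels alone, as the 3 libraries titled ST2-KO Treg against the 3 titled No Tumor, which is 6 of the 12 libraries of the series. All 6 are bulk RNA sequencing of cells from C57BL/6 mice. The No Tumor libraries have the genotype WT and come from nonmalignant BM. The ST2-KO Treg libraries have the genotype ST2-KO and come from tumor-loaded BM, as do the libraries titled WT Treg, which carry no deletion and are given below only side by side. Treg cells were sorted on day 14 after leukemic cell challenge. By the study's methods, recipients were lethally irradiated and received Treg cells together with conventional T cells, and leukemia came from MLL-AF9 cells that express eGFP. The ST2-/- donors were bred to Foxp3 eGFP reporter mice, and Treg cells of both compared groups were gated as CD4+ CD25+ eGFP+, so that the reporter and the leukemic line carry the same fluorescent protein. Age and the number of animals behind a library are not given in the labels, and p-values therefore measure the spread between libraries. Genotype and leukemia differ together between the groups and cannot be told apart in this comparison.

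Treg cells are CD4 T cells that keep other immune cells in check, and the transcription factor Foxp3 sets their identity. ST2, the product of Il1rl1, is the receptor of the alarmin IL-33 and marks Treg cells of tissues, which also use Gata3, Batf and Pparg. MLL-AF9 is a fusion of a histone methyltransferase with a partner of the elongation machinery. It is known for keeping the Hoxa genes and Meis1 switched on, which holds myeloid progenitors in an immature state.

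Il1rl1 (chr1:40429570-40465415, mm10) was read in all 6 libraries and was not lower under the ST2-KO label than in the No Tumor libraries. Its level was 76.7, 79.04 and 74.8 CPM (counts scaled to the size of the library) in the No Tumor libraries and 92.7, 86.6 and 90.3 CPM in those labelled ST2-KO, and the groups did not overlap. The increase was small (log2 fold change 0.23 ± 0.051 (SE), adjusted p = 0.000198, edgeR quasi-likelihood test, as for every adjusted p given here). In the WT Treg libraries with leukemia Il1rl1 was at 123, 127 and 136 CPM, above both compared groups. Against those libraries it was lower under the ST2-KO label (log2 fold change -0.52 ± 0.048 (SE), adjusted p = 5.83e-16). A count per gene cannot tell a full transcript from one that lacks the deleted exons, and the libraries are therefore called by their label. The sequencer sample numbers in the headings of the 3 ST2-KO columns also stand in the 3 headings of WT Treg with leukemia, and no 2 of the 12 columns held the same counts. Tbx21, which encodes Tbet, was at 12.2, 17.5 and 16.6 CPM without leukemia and 17.96, 18.6 and 23.6 CPM under the ST2-KO label (log2 fold change 0.37 ± 0.12 (SE), adjusted p = 0.0138), and it turned to -0.0011 relative to T cell transcripts, a scale explained below. Without replicate 1 of No Tumor its log2 fold change was 0.23 with an adjusted p of 0.193, and without replicate 3 of ST2-KO Treg 0.23 with an adjusted p of 0.184.

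The defining markers of Treg cells (Foxp3, Il2ra, Ctla4, Ikzf2 and Tnfrsf18) were present in every library, with a summed level of 629.5 to 635 CPM without leukemia and 983 to 992 CPM in the libraries labelled ST2-KO. Transcripts of other cells were read in every library too. Those of neutrophils summed to 6177 to 6466 CPM and 5612 to 6296 CPM, and those of B cells to 2085 to 2154 CPM and 1470.0 to 1516 CPM in the same order. Markers of monocytes and macrophages summed to 414 to 437 CPM and 565 to 589 CPM. None of the markers of these cells was at 0 in either group, and their part in the results was not tested. In bulk RNA, fewer cells of a type and less RNA per cell cannot be told apart. Totals were 14161886 to 17101634 counts per library without leukemia and 13272943 to 13914504 under the ST2-KO label.

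Of 13782 genes tested, 4408 (32.0%) passed an adjusted p below 0.05, which is the call used for single genes and gene lists. Under the ST2-KO label 2070 (15%) of them were higher and 2338 (17.0%) lower. The median log2 fold change of all tested genes was -0.016. Most calls were small, and 65.8% of the called genes lay within 0.5 of no change on the log2 scale. A log2 fold change beyond 1 in addition left 653 genes (4.74%), 522 (3.79%) of them higher and 131 (0.951%) lower. Large increases outnumbered large decreases, with 220 genes higher and 27 lower by more than 2 on the log2 scale. When libraries were scaled to T cell transcripts, as explained below, the balance beyond 1 turned to 322 higher and 467 lower. The values of 2411 genes (17.5%) in all 3 libraries labelled ST2-KO lay above all 3 No Tumor values, and those of 2918 genes (21.2%) lay below them. The smallest exact two-sided permutation p that 3 against 3 libraries allow is 0.1, so single genes were judged by the fit across all genes.

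**Figure D1:**
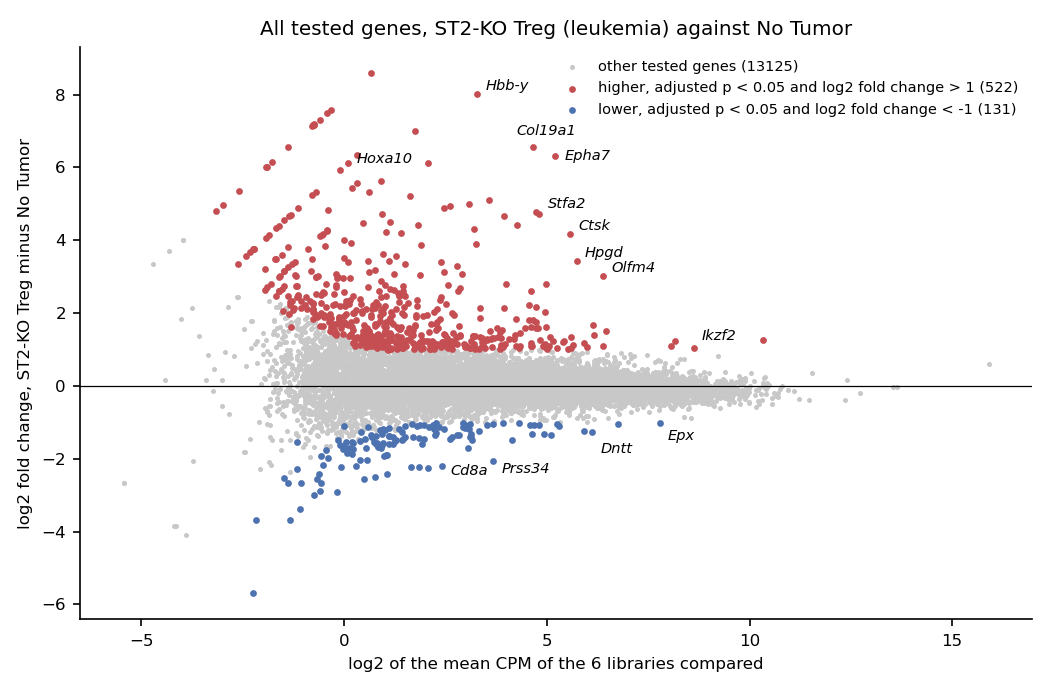
Log2 fold change (vertical axis, ST2-KO Treg minus No Tumor) of each tested gene against the log2 of its mean CPM over the 6 libraries (horizontal axis). Red points are the 522 genes called higher with a log2 fold change above 1, blue points the 131 called lower beyond -1, and the red points reach farther from 0 than the blue ones.

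The group with the largest increases was that of the Hoxa genes and other targets of MLL fusions. Of its 17 tested genes, 12 rose and 1 (Myb) fell, and the median log2 fold change was 1.83 against -0.016 for all genes. Relative to T cell transcripts 10 were higher and 5 lower, with a median of 1.46. Hoxa9 (chr6:52223100-52231089), the homeobox gene best known in MLL leukemia, had 1.38, 1.09 and 1.18 CPM in the No Tumor libraries and 17.3, 17.7 and 19.03 CPM in those labelled ST2-KO (log2 fold change 3.89 ± 0.18 (SE), adjusted p = 1.04e-32). Its partner Meis1 (chr11:18879817-19018985) was at 7.21, 6.72 and 6.91 CPM without leukemia and at 43.6, 40.01 and 42.8 CPM with it (log2 fold change 2.60 ± 0.1 (SE), adjusted p = 8.99e-38). Both genes separated the groups with no overlap and with little spread inside them.

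Several genes of this group were close to absent without leukemia. Hoxa10 had 2, 0 and 3 counts without leukemia and 77, 163 and 87 with it (log2 fold change 6.12 ± 0.41 (SE), adjusted p = 9.48e-23). Mecom, which encodes the stem cell factor Evi1, was at 0.437, 0.242 and 0.4604 CPM and 8.98, 11.4 and 15.1 CPM (log2 fold change 4.95 ± 0.26 (SE), adjusted p = 1.01e-28). Its 3 values under the ST2-KO label spread more widely than those of Hoxa9. Hoxa5, Hoxa6, Hoxa7 and Pbx3, a further cofactor of the Hoxa proteins, rose by 2.37, 2.06, 2.12 and 1.83 on the log2 scale. Myc, Jmjd1c, Zfp521 and Cpa3 of the same list were not called. In the WT Treg libraries with leukemia, which share the No Tumor libraries as their control, Hoxa9 stood at 18.01, 17.6 and 19.3 CPM and Meis1 at 42.1, 48.03 and 48.9 CPM.

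Genes of stem and progenitor cells moved both ways. Of 13 tested, 6 were higher and 4 (Tal1, Erg, Gata2 and Sox4, all transcription factors) lower, with a median of 0.47 on the main scale, and relative to T cell transcripts 5 were higher and 5 lower. Among those that rose were 3 surface proteins. Cd34, a surface marker of stem and progenitor cells, was at 2.91, 4.85 and 3.35 CPM without leukemia and 20.7, 11.3 and 17.999 CPM under the ST2-KO label (log2 fold change 2.15 ± 0.17 (SE), adjusted p = 6.62e-19), and Flt3, a growth factor receptor of early progenitors, at 10.6, 8.297 and 11.8 CPM and 25.9, 28.98 and 26.2 CPM (log2 fold change 1.41 ± 0.11 (SE), adjusted p = 4.73e-19). Kit rose less, from 45.9, 45.7 and 41.6 CPM to 57.1, 66.7 and 60.1 CPM (log2 fold change 0.47 ± 0.07 (SE), adjusted p = 6.44e-08). The summed level of the leukemic and progenitor markers Hoxa9, Meis1, Kit and Cd34 was 53.0 to 58.3 CPM without leukemia and 136 to 139.9 CPM in the libraries labelled ST2-KO. The part of such cells in the other results was not tested. Relative to T cell transcripts Kit no longer passed the test (0.091).

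**Figure D2:**
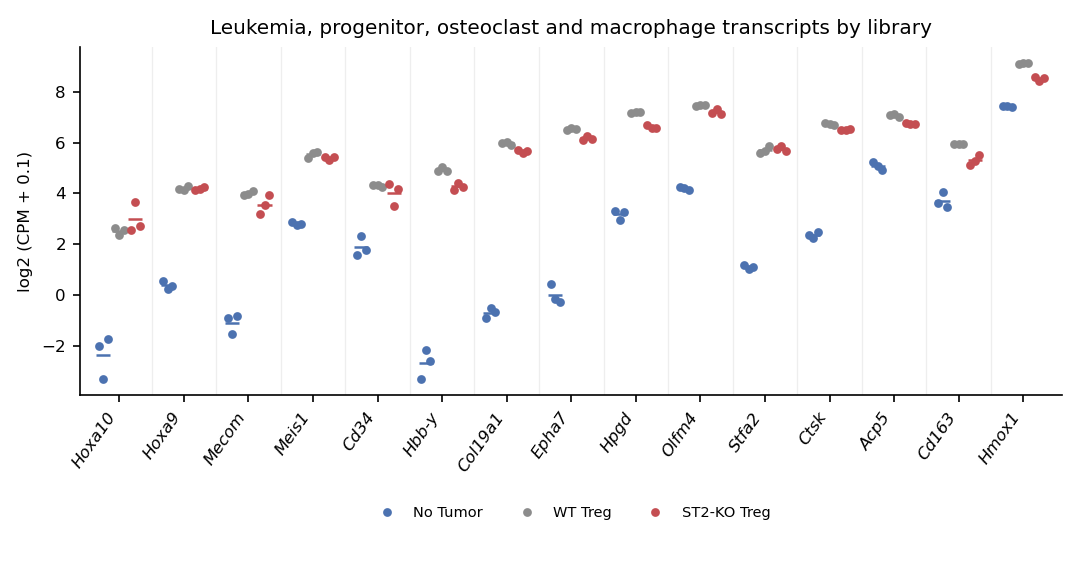
Each point is 1 library, as log2 of CPM plus 0.1 (vertical axis), for 15 transcripts, with No Tumor in blue, WT Treg with leukemia in grey, ST2-KO Treg with leukemia in red and the mean of each group as a line. For each of the 15 transcripts all 3 red points lie above all 3 blue points, and Hoxa9, Meis1 and Stfa2 reached about the same level in both leukemia groups.

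Beyond the MLL targets, the largest increases among genes of at least 5 CPM fell on transcripts with little else in common. Hbb-y, an embryonic beta-like globin, had 0, 2 and 1 counts without leukemia and 231, 279 and 259 counts in the libraries labelled ST2-KO, a ratio of 293 with a 95% counting interval of 99.8 to 1420.0. Col19a1, a nonfibrillar collagen, was at 0.437, 0.606 and 0.526 CPM and 52.8, 48.1 and 50.1 CPM (log2 fold change 6.55 ± 0.15 (SE), adjusted p = 1.27e-53), and the ephrin receptor gene Epha7 at 1.24, 0.787 and 0.723 CPM and 67.98, 77.4 and 71.1 CPM (log2 fold change 6.31 ± 0.12 (SE), adjusted p = 3.53e-59). All 3 transcripts were near 0 in every No Tumor library, and their groups lay far apart. Dsp (desmoplakin, of cell junctions), Cd109 (a membrane-anchored protein), Myo18b (a myosin of muscle) and Myh3 (the embryonic myosin heavy chain) followed with log2 fold changes of 5.12, 5.003, 4.88 and 5.23. Hpgd, the enzyme that degrades prostaglandins, rose from 9.76, 7.69 and 9.602 CPM to 104, 93.98 and 93.96 CPM (log2 fold change 3.44 ± 0.072 (SE), adjusted p = 1.71e-56). Ttn, which encodes the muscle protein titin, rose from 178, 169.7 and 166 CPM to 386, 403 and 411 CPM (log2 fold change 1.23 ± 0.035 (SE), adjusted p = 1.85e-46). In the WT Treg libraries with leukemia Col19a1 was at 63.7, 64.9 and 60.2 CPM and Epha7 at 89.2, 96.25 and 91.5 CPM. Hpgd was at 145, 145 and 148 CPM there.

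Among myeloid transcripts, those of early granules rose and those of late granules did not. Of 10 tested genes of primary granules and their regulators, made at the promyelocyte stage, 7 were higher and 1 (Fcnb) lower, with a median of 0.47, and relative to T cell transcripts 4 were higher and 4 lower. Ctsg, the serine protease cathepsin G, was at 10.2, 15.6 and 15.4 CPM without leukemia and 40.3, 44.2 and 39.7 CPM with the ST2-KO label (log2 fold change 1.58 ± 0.096 (SE), adjusted p = 3.8e-25). Elane, neutrophil elastase, was at 38.5, 42.4 and 38.01 CPM and 100.03, 103 and 109 CPM (log2 fold change 1.39 ± 0.052 (SE), adjusted p = 1.71e-38), and Prtn3, proteinase 3, rose by 1.35. Myeloperoxidase (Mpo) rose by only 0.22, and it turned to -0.16 when libraries were scaled to T cell transcripts, as described below. Of 16 genes of late granules and neutrophil maturation, 7 were lower and 1 (Mmp9) higher, with a median of -0.062. Ngp, a peptide of secondary granules, fell from 5876, 5837 and 6036 CPM to 4616, 4445 and 4546 CPM (log2 fold change -0.38 ± 0.016 (SE), adjusted p = 3.74e-36), and Ltf, lactotransferrin, by 0.15. S100a8 had 2204, 2018 and 1973 CPM and 1948, 2139.5 and 1641 CPM (log2 fold change -0.11 ± 0.033 (SE), adjusted p = 0.0054), but the groups overlapped. Without replicate 3 of ST2-KO Treg its log2 fold change was -0.018 with an adjusted p of 0.645, and without replicate 1 of No Tumor -0.067 with an adjusted p of 0.193.

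Olfm4, a glycoprotein of neutrophil granules, departed from the late granule genes and rose from 19.1, 18.5 and 17.4 CPM to 145, 159 and 141 CPM (log2 fold change 3.02 ± 0.055 (SE), adjusted p = 6.02e-61). A cluster of stefin A genes, cytoplasmic inhibitors of cysteine proteases, rose from a low level. Stfa2 went from 2.19, 1.94 and 2.04 CPM to 53.6, 58.2 and 51.1 CPM (log2 fold change 4.72 ± 0.12 (SE), adjusted p = 7.39e-51), BC100530 rose by 4.78 and Stfa1 by 4.41. These genes are near-identical copies, reads may have been split among them, and the value of each one alone is uncertain.

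Macrophage transcripts rose. Of 20 tested genes of monocytes and macrophages 14 were higher and 0 lower, with a median of 0.72. Relative to T cell transcripts 12 were higher and 5 lower, with a median of 0.35. The largest changes of the list were in genes of macrophages that clear red cells. Cd163, the scavenger receptor for hemoglobin bound to haptoglobin, was at 12.2, 16.4 and 10.9 CPM without leukemia and 34.9, 38.6 and 45.5 CPM under the ST2-KO label (log2 fold change 1.58 ± 0.11 (SE), adjusted p = 9.52e-23). Hmox1, heme oxygenase 1, was at 172, 174 and 169 CPM and 386, 345 and 369 CPM (log2 fold change 1.09 ± 0.034 (SE), adjusted p = 9.33e-44), and Spic, the transcription factor of iron-recycling macrophages, rose by 1.30. C1qc of the complement component C1q and the adhesion molecule Vcam1 rose by 1.18 and 0.86. The lysozyme genes Lyz1 and Lyz2, Ccr2 and Cd14, which mark monocytes more broadly, were not called. Ly6c2 of the same list, also a monocyte marker, rose from 252, 253 and 267 CPM to 322, 302 and 316 CPM (log2 fold change 0.29 ± 0.034 (SE), adjusted p = 2.57e-11). All 5 monocyte and macrophage markers summed above, Ly6c2 among them, were called higher. In the WT Treg libraries with leukemia Hmox1 was at 552, 564 and 560 CPM.

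Among genes known from osteoclasts, for which no list was set, 3 are given. Ctsk, cathepsin K, the protease with which osteoclasts dissolve bone collagen, had one of the largest increases of any well-read gene, from 5.099, 4.603 and 5.46 CPM to 89.1, 89.2 and 93.7 CPM (log2 fold change 4.17 ± 0.086 (SE), adjusted p = 4.5e-57). Acp5, the tartrate-resistant phosphatase that identifies osteoclasts, was at 37.1, 33.5 and 30.2 CPM and 109, 107 and 106 CPM (log2 fold change 1.68 ± 0.061 (SE), adjusted p = 2.06e-39). Atp6v0d2, a proton pump subunit needed for osteoclast fusion, rose from 4.37, 3.94 and 3.75 CPM to 25.7, 25.2 and 33.3 CPM (log2 fold change 2.81 ± 0.13 (SE), adjusted p = 2.77e-32). In the WT Treg libraries with leukemia Ctsk was at 108, 108 and 103 CPM and Acp5 at 135, 139 and 129 CPM. Collagen genes differed among themselves, with 11 of 30 higher, 2 lower and 17 not called. Col1a1, the main collagen of bone, was at 10.5, 8.72 and 9.93 CPM and 44.5, 44.8 and 41.4 CPM (log2 fold change 2.17 ± 0.13 (SE), adjusted p = 2.43e-26), and the matrix protein gene Thbs1, thrombospondin 1, was at 42.8, 42.6 and 50.6 CPM and 134, 128 and 127 CPM (log2 fold change 1.52 ± 0.058 (SE), adjusted p = 1.05e-37). Lepr, which marks the perivascular stroma of BM, rose by 1.05. Cxcl12, the retention chemokine of the same stroma, was at 74.7, 81.1 and 77.5 CPM and 76.4, 85.6 and 93.8 CPM and was not called (log2 fold change 0.13 ± 0.065 (SE), adjusted p = 0.111), and it turned to -0.24 relative to T cell transcripts. Without replicate 1 of ST2-KO Treg it was 0.20 higher on the log2 scale, with an adjusted p of 0.0135.

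Treg transcripts made up a larger share of the libraries labelled ST2-KO. Of 20 genes of Treg identity, 18 were higher and 0 lower, with a median log2 fold change of 0.60. Foxp3 (chrX:7573644-7595245) was at 71.4, 66.8 and 65.1 CPM without leukemia and 112, 117 and 95.2 CPM under the ST2-KO label (log2 fold change 0.67 ± 0.057 (SE), adjusted p = 3.02e-17), without overlap. Ikzf2, which encodes Helios, rose from 260.2, 265 and 251 CPM to 531, 524 and 531 CPM (log2 fold change 1.03 ± 0.029 (SE), adjusted p = 8.6e-47) with almost no spread within either group. Ctla4, the inhibitory receptor through which Treg cells remove costimulatory ligands, was at 22.1, 30.2 and 33.5 CPM and 47.5, 44.6 and 49.001 CPM (log2 fold change 0.71 ± 0.086 (SE), adjusted p = 6.07e-11). Tnfrsf18, which encodes GITR, rose by 0.69, and the largest increases of the list were those of Cd83 (1.31) and of the integrin gene Itgae (1.06). Il2ra, which encodes the CD25 of the sort gate, differed little, at 260.4, 248 and 249.9 CPM and 256, 261 and 276 CPM, and was not called (log2 fold change 0.066 ± 0.034 (SE), adjusted p = 0.14).

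Genes of the T cell receptor complex and other pan-T genes rose too, 15 of 16, with a smaller median of 0.38. Cd4 was at 81.4, 79.9 and 87.7 CPM without leukemia and 118, 127 and 115 CPM with the ST2-KO label (log2 fold change 0.53 ± 0.045 (SE), adjusted p = 2.82e-17), and Cd3e rose by 0.39. Libraries were therefore also scaled to the summed counts of these T cell genes, which lowered the median of all tested genes from -0.016 to -0.39 on the log2 scale. It left 683 genes (4.96% of those tested) higher and 8481 (61.5%) lower at an adjusted p below 0.05. With the main scaling these were 2070 and 2338. On the T cell scale 7.45% of the called genes were higher in place of 47%. On that scale 12 of the 20 Treg identity genes stayed higher and 2 were lower, with a median of 0.23. Foxp3, Ikzf2 and Ctla4 were higher relative to T cell transcripts by 0.30, 0.66 and 0.34. Il2ra was lower there by 0.31.

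**Figure D3:**
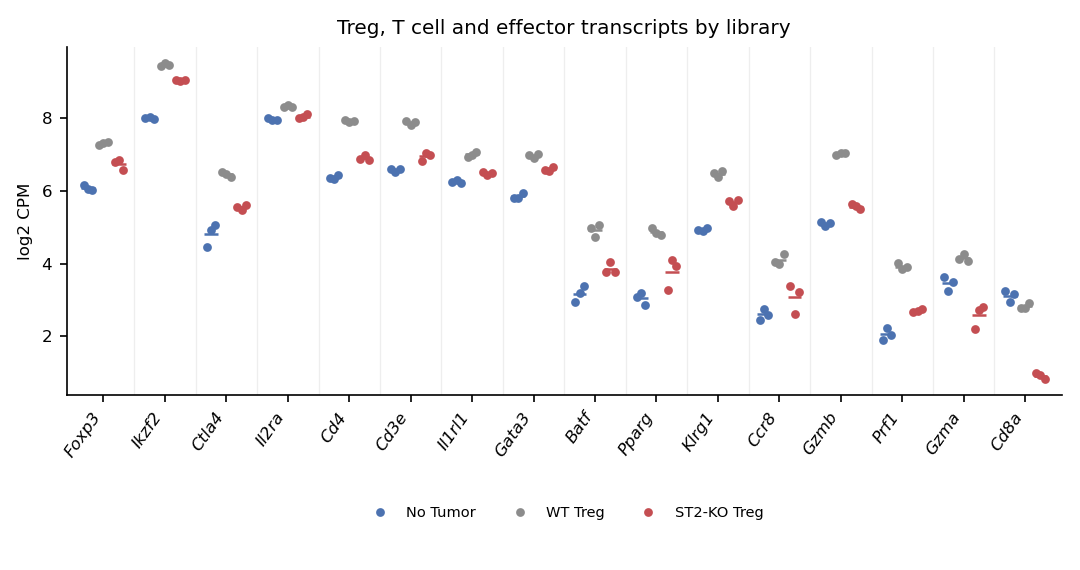
Each point is 1 library, as log2 CPM (vertical axis), for 16 transcripts of Treg cells, T cells and effector functions, with No Tumor in blue, WT Treg with leukemia in grey, ST2-KO Treg with leukemia in red and the mean of each group as a line. Foxp3, Ikzf2, Ctla4 and Klrg1 in red lie between blue and grey, and Gzma and Cd8a in red lie below both other groups.

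Of 25 genes of tissue Treg cells, 17 were higher and 2 (Irf4 and Furin) lower, with a median of 0.33 that turned to -0.041 relative to T cell transcripts, where 8 were higher and 8 lower. Irf4, which is also on the plasma cell list, was at 826, 810 and 810 CPM and 609, 637 and 630 CPM. In the WT Treg libraries with leukemia it was at 271, 268 and 268 CPM. The summed level of B cell markers also fell under the ST2-KO label, and its part in the change of Irf4 was not tested. Gata3, which sustains tissue Treg cells, was at 56.2, 56.02 and 61.3 CPM without leukemia and 95.2, 94.3 and 102 CPM under the ST2-KO label (log2 fold change 0.75 ± 0.052 (SE), adjusted p = 8.64e-22). Klrg1, a receptor of terminally differentiated Treg cells, was at 30.4, 29.9 and 31.4 CPM and 52.8, 48.4 and 53.8 CPM (log2 fold change 0.76 ± 0.078 (SE), adjusted p = 1.57e-13). Both kept their increase relative to T cell transcripts, at 0.38 and 0.39. Pparg, the nuclear receptor of fat tissue Treg cells, was at 8.52, 9.08 and 7.23 CPM and 9.67, 17.3 and 15.4 CPM (log2 fold change 0.77 ± 0.14 (SE), adjusted p = 6.45e-06), and 1 of its 3 values under the ST2-KO label was close to the No Tumor values. Batf, a factor of effector Treg cells, rose by 0.67 and Prdm1, which encodes Blimp1, by 0.58.

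The remaining genes of this program differed less clearly. Nfil3, a transcription factor induced by cytokines, was at 10.7, 13.8 and 9.996 CPM and 15.5, 13.6 and 14.4 CPM with overlapping groups (log2 fold change 0.33 ± 0.13 (SE), adjusted p = 0.0409), and its direction turned to -0.043 relative to T cell transcripts. Its call did not hold without replicate 1 of No Tumor (adjusted p = 0.145), replicate 3 of No Tumor (0.222), replicate 1 of ST2-KO Treg (0.131) or replicate 3 of ST2-KO Treg (0.0627), with log2 fold changes of 0.28, 0.24, 0.28 and 0.33. Ccr8, a chemokine receptor of tumor Treg cells, was at 5.46, 6.78 and 6.05 CPM and 10.5, 6.13 and 9.26 CPM (log2 fold change 0.50 ± 0.17 (SE), adjusted p = 0.0179), again with overlap. Without replicate 1 of No Tumor, replicate 1 of ST2-KO Treg and replicate 3 of ST2-KO Treg its log2 fold changes were 0.42, 0.33 and 0.44, with adjusted p of 0.0867, 0.174 and 0.062. Il10 had 3.205, 3.39 and 4.604 CPM and 2.82, 2.91 and 4.48 CPM (log2 fold change -0.13 ± 0.23 (SE), adjusted p = 0.714), Ebi3, a subunit of IL-35, 17.1, 24.3 and 18.7 CPM and 23.4, 22.4 and 24.1 CPM (log2 fold change 0.21 ± 0.11 (SE), adjusted p = 0.122), and Areg, the repair factor amphiregulin, 0.291, 0.545 and 0.0658 CPM and 0.152, 0.613 and 0.441 CPM (log2 fold change 0.39 ± 0.70 (SE), adjusted p = 0.73). None of these 3 effector molecules was called, and relative to T cell transcripts Ebi3 turned to -0.16 and Il10 was called lower (-0.50, adjusted p = 0.049). The median of all tested genes was -0.39 on that scale. The sign of Areg turned to -0.080 without replicate 3 of No Tumor and to -0.038 without replicate 2 of ST2-KO Treg, and that of Il10 to 0.048 without replicate 3 of No Tumor. Without replicate 2 of No Tumor Ebi3 was 0.38 higher, with an adjusted p of 0.00904. Il1rl1 belongs to the same list and its small increase turned to -0.15 relative to T cell transcripts.

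Among cytotoxic genes most calls were increases, and Gzma was the exception. Of 18 tested, 9 were higher and 1 lower, with a median of 0.43, and relative to T cell transcripts 3 were higher and 3 lower. The markers of NK cells, which use several of the same genes, summed to 31.5 to 38.8 CPM without leukemia and 45.4 to 54.3 CPM under the ST2-KO label, and their part in the change was not tested. Gzmb, the granzyme used by Treg cells against effector cells, was at 35.7, 33.01 and 34.7 CPM without leukemia and 50.01, 47.98 and 45.03 CPM with the ST2-KO label (log2 fold change 0.47 ± 0.067 (SE), adjusted p = 1.22e-08), and Prf1, the pore-forming perforin, at 3.71, 4.66 and 4.14 CPM and 6.39, 6.44 and 6.76 CPM (log2 fold change 0.64 ± 0.18 (SE), adjusted p = 0.00254). Gzma fell from 12.4, 9.51 and 11.4 CPM to 4.64, 6.59 and 6.98 CPM (log2 fold change -0.86 ± 0.15 (SE), adjusted p = 2.63e-06), without overlap. Eomes, a factor of cytotoxic lymphocytes, rose by 0.44 with overlapping groups, and Gzmk had 1.46, 1.27 and 1.45 CPM and 2.21, 0.9198 and 3.01 CPM and was not called (log2 fold change 0.56 ± 0.31 (SE), adjusted p = 0.158). Without replicate 1 of No Tumor and without replicate 1 of ST2-KO Treg the log2 fold change of Eomes was 0.31 and 0.29, with adjusted p of 0.11 and 0.131. Without replicate 2 of ST2-KO Treg that of Gzmk was 0.91, with an adjusted p of 0.0148. Relative to T cell transcripts Gzmb, Prf1 and Eomes no longer passed the test, at 0.097, 0.27 and 0.066, while Gzma was lower by 1.24. In the WT Treg libraries with leukemia Gzmb was at 127, 132 and 132 CPM and Gzma at 17.6, 19.2 and 16.7 CPM, so that each was higher there than in either compared group.

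Transcripts of CD8 T cells, which the CD4 gate should leave out, were low in all libraries and lower still under the ST2-KO label. Cd8a had 9.47, 7.75 and 9.01 CPM in the No Tumor libraries and 1.98, 1.92 and 1.76 CPM under the ST2-KO label (log2 fold change -2.21 ± 0.24 (SE), adjusted p = 7.6e-13). Its level was 4.62 times as high in the No Tumor libraries. Cd8b1 had 3.35, 2.36 and 1.78 CPM and 0.304, 1.303 and 0.955 CPM (log2 fold change -1.53 ± 0.42 (SE), adjusted p = 0.00242). In the WT Treg libraries with leukemia Cd8a stood at 6.85, 6.85 and 7.601 CPM. It was not called there against No Tumor (log2 fold change -0.30, adjusted p = 0.19).

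Other receptors of activated T cells followed the Treg genes. Of 10 costimulatory receptors and ligands of the TNF family 9 were higher and 0 lower, with a median of 0.64, led by Tnfrsf8 (1.15), and of 11 inhibitory receptors and their regulators 8 were higher and 0 lower, with a median of 0.51, led by Cd200 (1.40) and Pdcd1 (0.86). Relative to T cell transcripts the TNF family list had 6 higher and 1 lower with a median of 0.27, and the inhibitory list 4 higher and 2 lower with a median of 0.14. Of 15 Th1 genes 8 were higher and 0 lower with a median of 0.15. Relative to T cell transcripts 0 were higher and 9 (60%) lower, with a median of -0.23. Of all tested genes 61.5% were lower on that scale, with a median of -0.39. Bcl6, a transcriptional repressor used by follicular helper cells, had 66.4, 67.3 and 65.8 CPM and 58.8, 70.3 and 59.9 CPM. It was not called (log2 fold change -0.079 ± 0.07 (SE), adjusted p = 0.429). Relative to T cell transcripts, where the median of all tested genes was -0.39, Bcl6 was lower by 0.45 (adjusted p = 2.01e-08). Relative to T cell transcripts 2 of 15 chemokine receptors were higher and 8 (53.3%) lower, against 61.5% of all tested genes lower there. On the main scale 6 of the 15 rose, led by Ccr3 (1.11) and Ccr6 (0.92), and 1 fell. The 1 that fell was Cxcr4, which holds cells in the BM, at 450.4, 429 and 435 CPM without leukemia and 345, 351 and 319.8 CPM under the ST2-KO label (log2 fold change -0.37 ± 0.033 (SE), adjusted p = 1.9e-16).

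B lineage transcripts fell. Of 18 genes of B lineage identity 13 were lower and 0 higher, with a median of -0.28, and of 12 genes of B cell precursors 11 were lower and 0 higher, with a median of -0.67. Dntt, the polymerase that adds nucleotides to rearranging receptor genes, was at 100.3, 101 and 94.7 CPM without leukemia and 44.6, 39.9 and 37.98 CPM under the ST2-KO label (log2 fold change -1.27 ± 0.08 (SE), adjusted p = 2.73e-24). Rag1, of the recombinase itself, was at 1004, 1036 and 986 CPM and 707, 724 and 733 CPM (log2 fold change -0.48 ± 0.03 (SE), adjusted p = 6e-25). Ebf1, which commits cells to the B lineage, was at 777, 729 and 717 CPM and 486, 498 and 486 CPM (log2 fold change -0.60 ± 0.031 (SE), adjusted p = 1.22e-28), and Cd79a of the B cell receptor fell by 0.55. In the step from No Tumor to WT Treg with leukemia the median of the precursor list was -1.20, and in the step from there to the libraries labelled ST2-KO it was 0.44. Rag1 was at 225, 239 and 227 CPM in the WT libraries with leukemia.

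Genes of undifferentiated lymphocytes, several of which B cells share, fell as well, 9 of 14, with 1 (Tcf7) higher and a median of -0.23. Bach2, a repressor that B cells and resting T cells use, was at 1685, 1686 and 1701 CPM and 1352, 1316 and 1332 CPM (log2 fold change -0.34 ± 0.024 (SE), adjusted p = 3.03e-21), and Lef1, a factor of lymphocyte precursors and naive T cells, fell by 0.65. Bach2 was at 452, 452 and 464 CPM in the WT Treg libraries with leukemia. The summed level of B cell markers moved in the same direction, and its part in the change of Bach2 was not tested.

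Erythroid transcripts fell together. All 12 tested genes of the list were lower, with a median of -0.82 and a range of -1.07 to -0.49. Slc4a1, the anion exchanger band 3, was at 480.1, 492 and 494 CPM and 272, 250.1 and 273 CPM (log2 fold change -0.88 ± 0.033 (SE), adjusted p = 6.69e-39). Rhag, of the Rh complex of the red cell membrane, was at 39.99, 37.2 and 37.2 CPM and 15.1, 19.5 and 19.8 CPM (log2 fold change -1.07 ± 0.11 (SE), adjusted p = 2.35e-14), and Klf1, the master regulator of adult globin genes, at 16.8, 16.7 and 17.7 CPM and 9.59, 8.74 and 6.69 CPM (log2 fold change -1.03 ± 0.17 (SE), adjusted p = 3.3e-07). Red cell genes outside the list did the same, with Aqp1, a water channel, at 84.5, 90.4 and 81.8 CPM and 38.1, 38.02 and 32.4 CPM (log2 fold change -1.24 ± 0.076 (SE), adjusted p = 7e-25), Ank1, the ankyrin of the membrane skeleton, lower (-1.03) and Sox6, a factor of late erythroid maturation, lower too (-1.09). The embryonic globin Hbb-y moved the opposite way, as given above. In the WT Treg libraries with leukemia the list had a median of 0.04 against No Tumor, and Slc4a1 was at 518, 549 and 529 CPM.

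Basophil, mast cell and eosinophil transcripts also fell, 9 of 14, with 1 (Ccr3) higher and a median of -0.83. Prss34, a protease of basophils and mast cells, was at 23.8, 17.8 and 20.2 CPM without leukemia and 4.64, 5.596 and 4.63 CPM under the ST2-KO label (log2 fold change -2.05 ± 0.16 (SE), adjusted p = 1.62e-18). Mcpt8, a protease that marks mouse basophils, was at 12.9, 12.96 and 16.6 CPM and 7.61, 5.44 and 4.85 CPM (log2 fold change -1.25 ± 0.17 (SE), adjusted p = 3.92e-09). Epx, the peroxidase of eosinophils, had the largest loss of CPM among genes lower beyond 1, from 298, 296 and 292 CPM to 152, 139.7 and 145 CPM (log2 fold change -1.02 ± 0.035 (SE), adjusted p = 4.69e-41). The step from No Tumor to WT Treg with leukemia had a list median of 0.011, and the step from there to the libraries labelled ST2-KO one of -0.84.

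Promoters of the genes that fell were searched for AGATAA, the core letters bound by GATA factors of these lineages. RefSeq promoters on GRCm38.p6, from 250 bases before to 50 after the start, matched 10325 of the 13782 tested genes, and a gene was counted if any of its starts had a match on either strand. The motif was in 22 of 89 promoters (24.7%) of genes lower beyond 1, in 31 of 344 (9.01%) of those higher beyond 1 and in 842 of 10325 (8.15%) of all tested genes. Whole lists were searched too, whatever the direction of their genes. The motif was in 6 of 13 promoters of the basophil, mast cell and eosinophil list and in 3 of 8 of the erythroid list. The 6 include Ccr3, which rose, and Cpa3, which was not called. The windows of Prss34 (chr17:25298144-25298423, forward strand) and of Alas2 (chrX:150547167-150547446, forward strand), which encodes the first enzyme of heme synthesis in red cells and fell by 0.55, are shown from 250 bases before the start to 30 after it, with AGATAA or its reverse complement in capitals.
Prss34: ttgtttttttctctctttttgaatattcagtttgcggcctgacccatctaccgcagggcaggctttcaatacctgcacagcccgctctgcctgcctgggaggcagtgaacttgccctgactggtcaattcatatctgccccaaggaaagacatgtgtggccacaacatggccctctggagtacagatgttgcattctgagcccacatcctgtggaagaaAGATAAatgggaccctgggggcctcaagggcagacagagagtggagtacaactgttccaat
Alas2: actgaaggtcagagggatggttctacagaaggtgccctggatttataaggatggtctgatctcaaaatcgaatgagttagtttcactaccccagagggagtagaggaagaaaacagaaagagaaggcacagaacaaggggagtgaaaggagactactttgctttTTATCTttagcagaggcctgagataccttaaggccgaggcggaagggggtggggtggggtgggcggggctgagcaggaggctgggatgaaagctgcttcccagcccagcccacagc
The capitals begin 31 bases before the start of Prss34 on its own strand and 86 bases before that of Alas2 on the opposite strand. A match is a description of the letters and not evidence of binding.

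Dendritic cell genes did not move as a group, with 5 of 17 (29.4%) lower and 3 (17.6%) higher on the main scale. Of all tested genes 17% were lower and 15% higher. Beyond 1 on the log2 scale 3 of the list were lower and 2 higher, the highest at 1.41. Markers of plasmacytoid dendritic cells (Siglech, Bst2 and Tcf4) summed to 259 to 281 CPM and 238 to 257.5 CPM, with 1 called lower. Single markers fell far. Xcr1, the chemokine receptor of cross-presenting dendritic cells, was at 5.61, 5.69 and 4.34 CPM without leukemia and 0.837, 1.15 and 1.32 CPM with the ST2-KO label (log2 fold change -2.23 ± 0.36 (SE), adjusted p = 2.7e-07), and Siglech, a lectin of plasmacytoid dendritic cells, at 10.3, 14.2 and 13.7 CPM and 4.72, 3.99 and 3.09 CPM (log2 fold change -1.70 ± 0.22 (SE), adjusted p = 1.19e-09). The largest decreases among genes of at least 5 CPM also held Apol11a (-2.26) and Apol11b (-1.36) of the apolipoprotein L family, Crhbp (-2.23), which binds corticotropin-releasing hormone, the glucose transporter gene Slc2a4 (-1.60) and the matrix proteoglycan gene Vcan (-1.49).

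Proliferation genes fell by a small amount. Of 29 genes of the cell cycle and mitosis 26 were lower and 0 higher, with a median of -0.40, of 22 genes of DNA replication 13 were lower and 0 higher, with a median of -0.18, and all 34 tested replication-dependent histone genes were lower, with a median of -0.41. The histone genes are near-identical copies and their single values are uncertain. Mki67, which encodes Ki67, was at 3294, 3246 and 3171 CPM without leukemia and 2416, 2519 and 2439.5 CPM under the ST2-KO label (log2 fold change -0.40 ± 0.019 (SE), adjusted p = 8.51e-32). Top2a, the topoisomerase of dividing cells, was at 1494, 1439 and 1409 CPM and 1047, 1155 and 1103 CPM (log2 fold change -0.39 ± 0.025 (SE), adjusted p = 7.93e-24), and Plk1, a mitotic kinase, at 100.2, 104 and 96.7 CPM and 62.95, 64.9 and 60.8 CPM (log2 fold change -0.67 ± 0.061 (SE), adjusted p = 8.52e-16). B cell precursors and the other dividing cells of the BM use the same genes, and the markers of B cell precursors summed to 1289 to 1336 CPM without leukemia and 876 to 891 CPM under the ST2-KO label. Their part in this result was not tested. Relative to T cell transcripts, where all genes shift down, 29 of 29 cell cycle genes and 34 of 34 histone genes were lower.

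Promoters of cell cycle genes often held a pair of motifs. CCAAT, the box bound by the factor NF-Y, together with TTTGAA, the core of the cell cycle homology region, was in 14 of 23 promoters (60.9%) of the cell cycle list and in 598 of 10325 (5.79%) of all tested genes, both motifs counted on either strand. CCAAT alone was in 17 of the 23 and in 42.6% of all, and in 14 of 14 promoters of the cholesterol synthesis list. The other motifs searched were TGACTCA, of AP-1 factors, in 32 of 344 promoters (9.30%) of genes higher beyond 1 and 4.67% of all, and CACGTG, the E-box, in 23 of 344 (6.69%) and 11.4%. The motifs share no letters where they were marked. The windows of Cdc20 (chr4:118437314-118437593, reverse strand), the activator of the anaphase-promoting complex, and Ccnb2 (chr9:70421525-70421804, reverse strand), a mitotic cyclin, show the 2 motifs in capitals.
Cdc20: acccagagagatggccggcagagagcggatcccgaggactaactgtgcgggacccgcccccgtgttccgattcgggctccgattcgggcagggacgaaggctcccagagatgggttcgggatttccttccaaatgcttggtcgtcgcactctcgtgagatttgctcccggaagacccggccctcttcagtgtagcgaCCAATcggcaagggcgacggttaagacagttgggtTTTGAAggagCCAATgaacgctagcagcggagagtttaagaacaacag
Ccnb2: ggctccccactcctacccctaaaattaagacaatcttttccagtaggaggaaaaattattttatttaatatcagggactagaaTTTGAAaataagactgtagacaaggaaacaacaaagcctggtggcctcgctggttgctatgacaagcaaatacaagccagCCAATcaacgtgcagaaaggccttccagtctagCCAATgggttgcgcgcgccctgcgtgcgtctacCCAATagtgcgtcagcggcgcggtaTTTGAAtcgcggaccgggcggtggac
Cdc20 was at 83.5, 83.1 and 92.5 CPM without leukemia and 62.6, 67.5 and 64.6 CPM under the ST2-KO label (log2 fold change -0.41 ± 0.066 (SE), adjusted p = 2.78e-07), and Ccnb2 at 165, 158 and 156 CPM and 124, 116 and 119.9 CPM (log2 fold change -0.41 ± 0.047 (SE), adjusted p = 1.05e-11). In Cdc20, TTTGAA begins 18 bases before the start, and in Ccnb2 it begins at base 5 after it and again 167 bases before it.

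Genes of the type I interferon response fell mildly, while most of those of the interferon gamma response were not called. Of 24 genes of the type I interferon response 14 were lower and 1 (Ifih1) higher, with a median of -0.29. Oasl2, an antiviral protein of the oligoadenylate synthetase family, was at 59.8, 57.2 and 55.9 CPM without leukemia and 38.1, 38.6 and 28.7 CPM under the ST2-KO label (log2 fold change -0.72 ± 0.083 (SE), adjusted p = 1.83e-11), and Ifi44 fell by 0.73. In the WT Treg libraries with leukemia the same list had a median of 0.38 against No Tumor and Oasl2 was at 73.6, 70.8 and 67.5 CPM. Of 23 genes of the interferon gamma response 7 were lower, 3 higher and 13 not called, with a median of -0.092. Among antigen presentation genes, 5 of 11 of MHC class II were lower and 1 (H2-Eb2) higher, and 7 of 15 of MHC class I and the immunoproteasome were lower and 2 (Tapbp and Tap2) higher. Ciita, the regulator of class II genes, was at 58.6, 48.6 and 49.1 CPM and 30.2, 38.7 and 37.2 CPM (log2 fold change -0.56 ± 0.092 (SE), adjusted p = 6.27e-07), Cd74, the invariant chain, at 248, 256 and 265 CPM and 212, 237 and 245 CPM (log2 fold change -0.15 ± 0.04 (SE), adjusted p = 0.00254), and B2m, the light chain of class I, at 1775, 1776 and 1760.3 CPM and 1558, 1603 and 1478 CPM (log2 fold change -0.20 ± 0.021 (SE), adjusted p = 3.64e-13). Without replicate 1 of ST2-KO Treg the log2 fold change of Cd74 was -0.091, with an adjusted p of 0.0773.

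Metabolic lists differed in their response. The 78 tested nuclear genes of mitochondrial respiration were mostly not called (69), with 7 higher, 2 lower and a median of -0.0039. Of 21 genes of glycolysis and hypoxia 16 were higher and 1 (Vegfa) lower, with a median of 0.23 on the main scale and -0.14 on the T cell scale. Of 21 genes of cholesterol synthesis 11 were higher and 0 lower, with medians of 0.23 and -0.14. Of 81 ribosomal protein genes 50 were higher and 1 (Rpl3l) lower, with medians of 0.14 and -0.23. The sign of the medians of glycolysis, cholesterol synthesis and ribosomal proteins therefore depended on the scale. The median of all tested genes was -0.016 on the main scale and -0.39 on the T cell scale. Each of these lists lay above it on both scales.

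The noncoding RNAs Rn45s and Rmrp were higher, and the part of ribosomal RNA removal in the level of Rn45s was not tested. Rn45s, the ribosomal RNA precursor that the library kit is meant to remove, was at 46283, 48445 and 51105 CPM without leukemia and 73355, 71937 and 76007 CPM under the ST2-KO label (log2 fold change 0.60 ± 0.017 (SE), adjusted p = 8.2e-47). Rmrp, the RNA of an enzyme that cuts this precursor, was at 782, 737 and 735 CPM and 1792, 1978 and 1675 CPM (log2 fold change 1.27 ± 0.029 (SE), adjusted p = 6.58e-54), the largest gain of CPM among genes higher beyond 1. Rmrp in the WT Treg libraries with leukemia was at 1825, 1793 and 1906 CPM, and Rn45s there was at 35174, 34384 and 35629 CPM, below both compared groups.

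**Figure D4:**
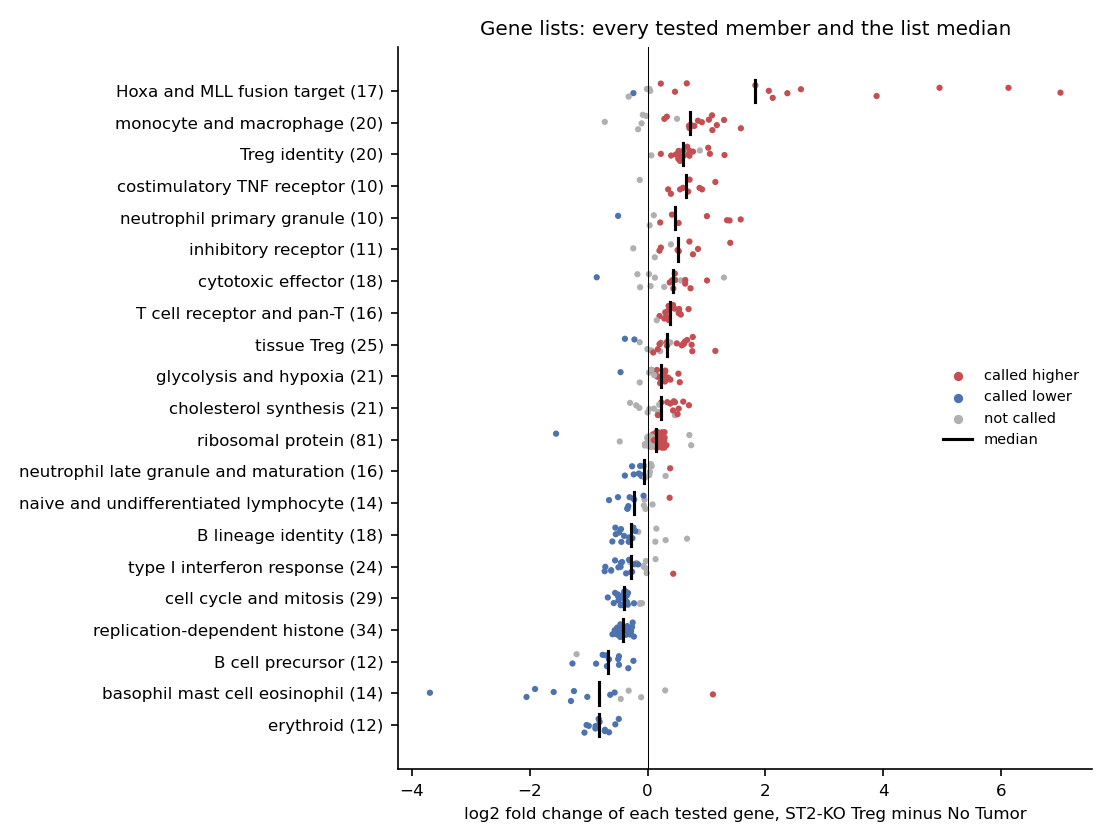
Log2 fold change (horizontal axis, ST2-KO Treg minus No Tumor) of every tested member of 21 gene lists, 1 point per gene, with the number tested in brackets and the list median as a black line. Red points were called higher and blue points lower, and the lists run from a median of 1.83 for Hoxa and MLL fusion targets to -0.83 for basophil, mast cell and eosinophil genes.

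The comparison spans a step of leukemia with WT Treg cells and a step from those to the libraries labelled ST2-KO, which add up to it by construction and share their libraries with it. The values of the lists are set side by side for this reason only. Hoxa and MLL fusion targets had medians of 1.71 and -0.021 in these steps. Treg identity genes had 1.25 and -0.53, pan-T genes 1.45 and -0.97, and cytotoxic genes 1.196 and -0.79. For B lineage identity the steps were -1.75 and 1.33, and for cell cycle genes -0.66 and 0.29. Erythroid genes had 0.04 and -0.91.

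**Figure D5:**
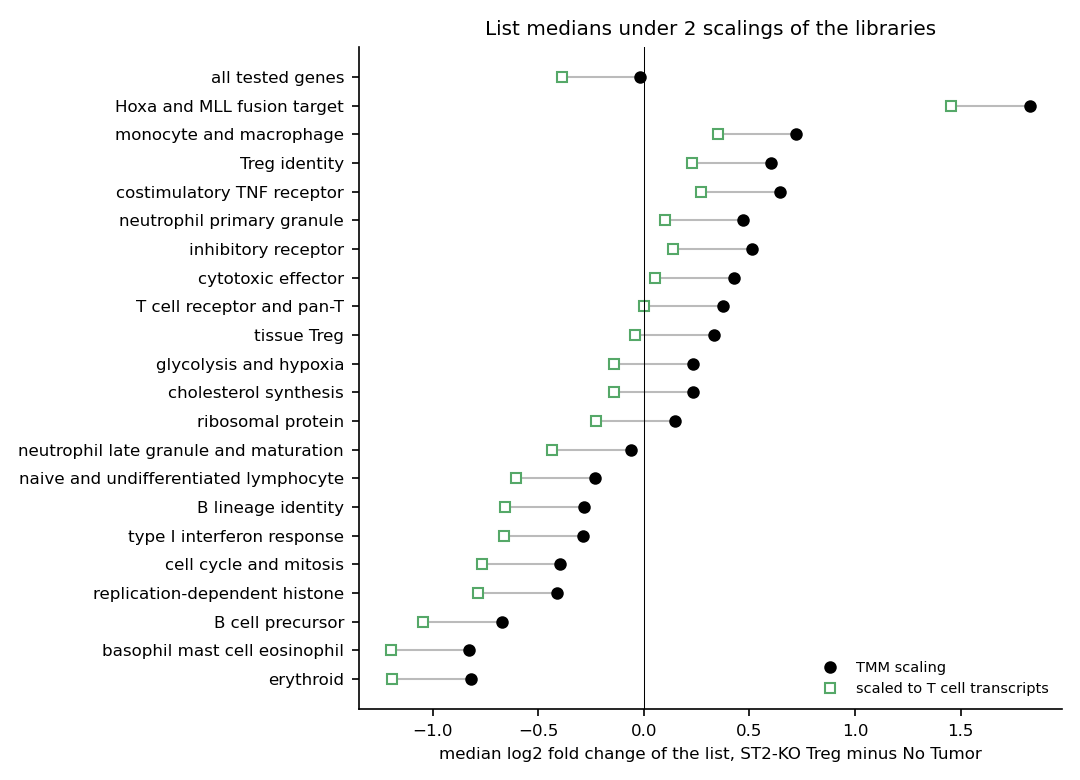
Median log2 fold change (horizontal axis, ST2-KO Treg minus No Tumor) of all tested genes and of 21 gene lists with TMM scaling (filled circles) and with libraries scaled to T cell transcripts (open squares). Every list shifts to the left by about the shift of all genes, which leaves Hoxa and MLL fusion targets and Treg identity among the lists above 0 and puts tissue Treg, glycolysis, cholesterol synthesis and ribosomal protein genes below it.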

How the data were processed

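Gene counts were deposited by the authors as raw counts of 14259 genes in 12 libraries, beside log2 FPKM values. Per the labels, total RNA libraries had ribosomal RNA removed and reads were aligned to mm10 with STAR. Per the study's methods, featureCounts counted them on UCSC refGene. The deposited log2 FPKM values equal log2 CPM less a constant per gene (largest deviation 5.7e-14) and were used only as an alternative, with limma 3.58.1.

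Groups came from the sample titles. Counts were tested with edgeR 4.0.16 in R 4.3.3 (filterByExpr, TMM, quasi-likelihood test, 1 fit of all 12 libraries, Benjamini-Hochberg adjustment over 13782 genes), a script checked on simulated data. CPM was computed from the counts of each library, and SE is that of the log2 fold change. Counting intervals are exact, at 95%, and cover counting error only. Alternatives were DESeq2 1.42.0, RLE factors, the likelihood ratio test, other filters and library sizes, the 6 libraries alone, the replicate number as a block, and leaving out each library. Gene positions are from GENCODE on mm10.

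Printed genes were the targeted genes and Rn45s, genes named by the study, the 15 largest log2 fold changes at 5 CPM or more and the 10 largest CPM differences per direction, and, per list, the 3 highest and the 2 most changed members. Hoxa5, Hoxa6, Hoxa7, Hoxa9, Meis1, Pbx3, Kit, Flt3, Prtn3, C1qc, Vcam1, Atp6v0d2, Lepr, Foxp3, Tnfrsf18, Mcpt8, Cdc20, Ccnb2, Alas2 and the exceptions named beside list counts were chosen after their values were seen. The comparison and the lists were chosen with earlier results of these data known.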

Additional observations from a re-analysis of the deposited data

How the results depend on the processing

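The counts of called genes stayed within 1.5 times of their reported values under every alternative run other than scaling to T cell transcripts. That scale gave 322 genes higher and 467 lower with a log2 fold change beyond 1, against 522 and 131, and 683 higher and 8481 lower at an adjusted p below 0.05 alone, against 2070 and 2338. Without 1 library the counts beyond 1 ran from 481 to 544 higher and 113 to 169 lower, and those at an adjusted p below 0.05 from 1777 to 2010.0 higher and 1996 to 2320.0 lower. Same-numbered libraries did not deviate together (r from -0.02 to 0.021 over 18 pairs), and the replicate number as a block, which is not a pairing here, gave 508 higher and 129 lower beyond 1. On the T cell scale the sign turned for Il1rl1 (-0.15), Tbx21 (-0.0011), Mpo (-0.16), Cxcl12 (-0.24), Il2ra (-0.31), Nfil3 (-0.043) and Ebi3 (-0.16), and for the medians of the lists tissue Treg (-0.041), glycolysis and hypoxia (-0.14), cholesterol synthesis (-0.14) and ribosomal protein (-0.23). That scale also ended the calls of Kit (0.091), Cd3e (0.016), Ccr8 (0.13), Gzmb (0.097), Prf1 (0.27) and Eomes (0.066), and gave calls of lower for Il10 (-0.50) and Bcl6 (-0.45). Library sizes without Rn45s, ribosomal protein and hemoglobin genes gave a call of higher for Il2ra (0.088). Without 1 library Areg ran from -0.080 to 1.17 and Il10 from -0.39 to 0.048, and both changed sign. The cause of these changes was not tested, other than that the T cell scale shifts all genes by construction. With limma Tbx21, S100a8 and Ccr8 were not called, and in the fit of the 6 libraries alone S100a8, Nfil3, Ccr8, Eomes and Tnfrsf8 were not. With DESeq2 S100a8 was not called. Genes of a few counts, such as Areg, are limited by depth.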

Other observations

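Further gene groups differed in part between the libraries labelled ST2-KO and those without leukemia. The 2 collagen genes that fell were Col27a1 and Col5a3, and relative to T cell transcripts 11 of 30 collagen genes were higher and 3 lower. Col27a1, a cartilage collagen, was the more changed of the pair, from 52.01, 52.1 and 55.6 CPM to 28.4, 26.4 and 25.5 CPM (log2 fold change -0.99 ± 0.11 (SE), adjusted p = 3.74e-12). Of 13 genes of stroma and endothelium 6 were higher and 1 (Pecam1) lower. Pecam1, an adhesion molecule of endothelium that blood cells share, was at 187, 186 and 196 CPM without leukemia and 143, 150.2 and 146 CPM under the ST2-KO label (log2 fold change -0.37 ± 0.045 (SE), adjusted p = 4.91e-11). Of 13 plasma cell genes 3 were higher and 4 lower, and Jchain, which joins the chains of secreted IgM and IgA, rose from 25.8, 23.4 and 23.6 CPM to 49.8, 44.9 and 43.3 CPM (log2 fold change 0.92 ± 0.069 (SE), adjusted p = 4.77e-20).

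Of 18 genes of the IL-1 family and its signalling 7 were higher and 2 (Myd88 and Traf6) lower on the main scale. Relative to T cell transcripts 3 were higher and 9 (50%) lower, against 61.5% of all tested genes lower there. The cytokine genes Il1a and Il18 had the largest increases, Il1a from 0.874, 0.908 and 0.986 CPM to 1.75, 4.52 and 4.48 CPM (log2 fold change 1.95 ± 0.34 (SE), adjusted p = 1.81e-06) and Il18 from 9.61, 9.21 and 9.799 CPM to 17.9, 18.1 and 17.3 CPM (log2 fold change 0.90 ± 0.14 (SE), adjusted p = 6.53e-08). Of 20 immediate early genes 8 were higher and 2 (Btg2 and Jun) lower on the main scale. Relative to T cell transcripts 2 were higher and 11 (55%) lower, again against 61.5% of all tested genes lower. Nr4a3 and Egr2, both induced by T cell receptor signals, were at 20.5, 17.3 and 18.5 CPM and 7.28, 5.63 and 6.25 CPM without leukemia and at 41.9, 30.3 and 39.1 CPM and 12.9, 11.1 and 12.3 CPM under the ST2-KO label, with log2 fold changes of 0.98 and 0.93. Xcl1, a chemokine of activated lymphocytes whose receptor is encoded by Xcr1, rose from 5.61, 4.3001 and 4.93 CPM to 8.83, 11.7 and 11.8 CPM (log2 fold change 1.13 ± 0.17 (SE), adjusted p = 3.16e-08). Bcl2a1b, of the anti-apoptotic A1 family, rose from 6.99, 7.69 and 7.04 CPM to 10.05, 17.2 and 17.8 CPM (log2 fold change 1.05 ± 0.15 (SE), adjusted p = 7.16e-09), and as its copies are near-identical its single value is uncertain. Hspa1b, an inducible heat shock gene with a near-identical neighbour, rose from 1.38, 1.57 and 2.17 CPM to 4.49, 4.599 and 3.38 CPM (log2 fold change 1.27 ± 0.27 (SE), adjusted p = 7.5e-05). Il6 had 34 counts over the 3 No Tumor libraries and 2 over those labelled ST2-KO, a ratio of 0.0672 with a 95% counting interval of 0.00782 to 0.262.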
